A study of Mus musculus with 17 samples.

Results

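The late phase of a transcription block was measured in heart muscle cells that lack MBNL1 function by label. Libraries taken 8 h after actinomycin D was added were compared with libraries taken at 4 h, 3 against 3, which makes 6 of the 17 libraries of the series. They were chosen by their labels alone. The question was which transcripts went on falling, which levelled off and which changed direction between 4 and 8 h in these cells.

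All cells were ventricular myocytes from 60-day-old mice, plated on laminin for some hours before the start. The KO group is labelled as MBNL1 loss-of-function and the control as wild type (WT). The KO libraries at 0 h came from cells with no actinomycin D, and those at 4 and 8 h from cells in actinomycin D at 2 µg/mL, with 3 libraries at each time. WT had 3 libraries at 0 h, 2 at 4 h and 3 at 8 h under the same treatment. The labels do not say how the knockout was made, which promoter or Cre it used, or whether replicates came from separate animals, so p-values measure the spread between these libraries, which may be technical. Every library at 4 and 8 h came from treated cells, so loss of RNA by decay cannot be told apart from time in culture. In bulk RNA, fewer cells of a type and less RNA per cell also cannot be told apart.

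Actinomycin D binds DNA and stops RNA polymerases, so that a transcript can only persist or decay once it acts. Short-lived messages, among them those of immediate early genes and of signalling inhibitors, are cleared first, and many carry AU-rich elements in the 3′ untranslated region (UTR) that recruit decay enzymes. Long-lived messages of contraction and energy supply make up a growing share of what is left. MBNL1 is a muscleblind RNA-binding protein that acts on splicing, localisation and turnover of messages. Levels of single genes are in CPM, the count relative to the library's size, after TMM scaling. Summed marker levels and percentages of counts are relative to the total count, without TMM factors. Every level below is thus a share of its library. A rise during the block is therefore a rise against other transcripts.

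Mbnl1 was read first, as the targeted gene. Its level was 102, 104 and 93.8 CPM in the 3 KO libraries at 0 h. It was 100, 100 and 105 CPM at 4 h and 100.3, 106 and 105 CPM at 8 h in KO, and 92.9 and 91.3 CPM at 4 h and 86.7, 85.7 and 88.1 CPM at 8 h in WT. The KO libraries were thus not lower than the WT libraries at either time, and a count over the whole gene does not check a deletion of part of it. The log2 fold change of Mbnl1 from 4 to 8 h in KO was 0.03 ± 0.05 (SE, adjusted p = 0.798). Esr1, the oestrogen receptor alpha gene, which is part of some inducible Cre fusions, was at 2340, 2365 and 2253 CPM at 4 h and 2365, 2266 and 2315 CPM at 8 h in KO, against 0.115 and 0 CPM at 4 h and 0.414, 0.458 and 3.34 CPM at 8 h in WT. The Esr1 change from 4 to 8 h in KO was -0.00 ± 0.14 (SE, adjusted p = 0.997), with overlapping levels at the 2 times.

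The 6 libraries held 17539288 to 17971617 counts. Mitochondrially encoded genes took 36.0 to 37.5% of counts at 4 h and 35.1 to 36.8% at 8 h. The cardiomyocyte marker list (Myh6, Tnnt2, Tnni3, Actc1, Myl2, Ryr2, Pln) was high in all of them, at a summed 54270 to 57110 CPM at 4 h and 56910 to 60040 CPM at 8 h. The endothelial list summed to 136.8 to 140.6 CPM and 73.7 to 82.5 CPM. The lymphocyte list was near 0, at 0.0559 to 0.1685 CPM at 8 h with 3 of its 5 markers at 0 in all 3 libraries. The tissue label was thus borne out by its markers, with a small share of RNA from other cells of the heart.

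Between 4 and 8 h, 1138 of 13230 tested genes changed in KO at an edgeR adjusted p under 0.05, which is 8.6% of those tested. There were 633 higher (4.78%) and 505 lower (3.82%) at 8 h. The falls were deeper than the rises. The median log2 fold change was -0.42 among the lower genes and 0.19 among the higher ones, and 75 genes fell more than 2-fold while 2 rose more than 2-fold. Those 2, Zfp972 and Gm49024, were at or under 1.31 CPM in every library at 4 and 8 h and were named after their values were seen. The KO libraries at 4 and 8 h did not overlap for 3513 genes, 26.6% of those tested.

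The balance of rises and falls depends on how libraries are scaled. With library size alone the split was 41 higher and 927 lower, with RLE factors 819 and 447, and with scaling by ribosomal protein counts 4 and 2162. The median change of all genes was -0.01 with TMM, and ribosomal protein scaling moved it by -0.17. Rises of under about that size are rises relative to the bulk of transcripts only. Of the 39 named genes called higher, 15 kept the call under library size scaling and 3 under ribosomal protein scaling. The 36 called lower all kept it under both. On the deposited ratios with limma 0 of the 39 and 0 of the 36 kept the call. Leaving out a single library also lowered the counts, to 310 higher and 321 lower without KO replicate 3 at 8 h. The counts were 333 and 292 without KO replicate 1 at 4 h, 336 and 314 without replicate 2 and 417 and 333 without replicate 3.

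The first 4 h were the steeper ones. From 0 to 4 h, 3293 genes (24.9%) were called, 1506 higher and 1787 lower, with a median of -0.62 among the lower genes. The KO libraries at 4 h are the end of the first interval and the start of the second, so errors in them move the changes of both intervals in opposite directions. Of the 1787 genes that fell early, 320 also fell late (2.42% of tested genes), 65 fell and then levelled off (0.491%), and 2 fell and then rose (0.0151%). The remaining genes that fell early were not called late and were not shown to have levelled off. Levelling off here means that the late change was not called and that it differed from the early one by its own test. That test, of the late minus the early change, was passed by 90 genes (0.68%), 84 above 0 (0.635%) and 6 below 0 (0.0454%). In the other direction, 425 genes rose in both intervals (3.21%), 3 rose and then fell (0.0227%), and 3 fell from 4 h on only (0.0227%). Falling from 4 h on only asks that the late minus early test was passed too. Without that test, 182 genes were not called early and fell late (1.38%), and 206 were not called early and rose late (1.56%).

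**Figure D1:**
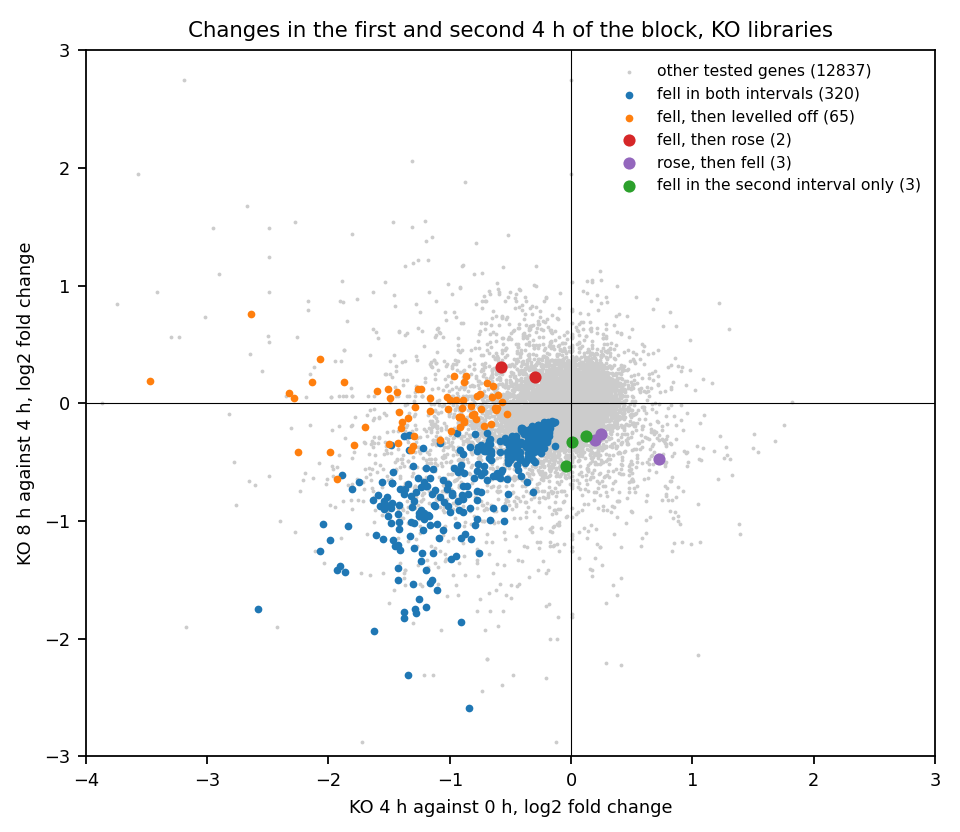
Each point is 1 tested gene, with the log2 fold change of KO 4 h against 0 h on the x axis and of KO 8 h against 4 h on the y axis (TMM scaling); colours mark the patterns, and 19 genes lie outside the axes. The 320 genes that fell in both intervals lie below 0 on both axes, and the 65 that levelled off lie left of the middle, with late changes from -0.64 to 0.76 and a median of -0.04; the 4 h libraries enter both axes with opposite sign.

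Among the 320 genes that fell in both intervals the median log2 fold change was -0.68 early and -0.48 late. For 304 of them the late and early changes were not told apart by the test, and for 16 the late fall was smaller. Without KO replicate 1, 2 or 3 at 4 h the count was 179, 198 or 203. With ribosomal protein scaling it was 1518.

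Genes of the vessel wall lining fell deeply in the late phase. Endothelial cells line capillaries between the myocytes and are known to come along in small numbers when myocytes are isolated. Of 15 endothelial markers tested, 12 fell from 4 to 8 h and none rose, beside 3.82% lower and 4.78% higher over all genes. The median of the markers was -0.80 on the log2 scale, beside -0.01 over all genes. These 12 markers had also fallen from 0 to 4 h. All 15 were then called lower, beside 13.5% over all genes, and the median was -1.23. The other 3 were Egfl7, at -0.36, and Tie1, at -0.34, which were not called late and fell less than early by the test of the difference, and Vwf, at 0.01 (adjusted p = 0.965).

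Kdr, which encodes a VEGF receptor (ENSMUSG00000062960, GRCm38 chromosome 5, 75932827 to 75978458, reverse strand), was at 29.1, 30.9 and 32.4 CPM at 0 h. It was at 10.1, 11.3 and 12 CPM at 4 h and 6.16, 4.04 and 4.69 CPM at 8 h. All libraries at 8 h lay below all at 4 h, and those below all at 0 h. The late log2 fold change of Kdr was -1.16 ± 0.11 (SE, adjusted p = 4.71e-12), which left 44.8% of the level at 4 h.

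Cdh5, the cadherin of endothelial junctions, was at 14.4, 14.8 and 14.2 CPM at 4 h and 7.86, 7.03 and 9.38 CPM at 8 h. Its late change was -0.84 ± 0.09 (SE, adjusted p = 2.13e-09), with no overlap. Eng, a co-receptor for TGF-beta, was at 12.3, 9.59 and 10.2 CPM at 4 h and 6.77, 6.34 and 5.41 CPM at 8 h and changed by -0.79 ± 0.11 (SE, adjusted p = 1.17e-06). For both genes the early fall was larger in size, at -1.05 for Cdh5 and -1.08 for Eng, but the test did not tell the intervals apart (adjusted p = 0.782 and 0.735 by edgeR).

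Cav1, which forms caveolae, was at 12.6, 12.7 and 12.5 CPM at 4 h and 6.46, 5.78 and 8.18 CPM at 8 h, a change of -0.89 ± 0.11 (SE, adjusted p = 3.07e-08). Podxl, a sialomucin of the luminal surface, was at 9.32, 9.59 and 10.1 CPM at 4 h and 5.44, 5.16 and 5.05 CPM at 8 h, a change of -0.89 ± 0.12 (SE, adjusted p = 2.34e-07). Ly6c1, a surface protein of endothelial and some blood cells, was at 6.87, 8.01 and 7.68 CPM at 4 h and 3.44, 3.92 and 4.33 CPM at 8 h, a change of -0.95 ± 0.14 (SE, adjusted p = 1.50e-06). In these 3 genes, too, no library at 8 h reached the lowest library at 4 h.

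Other deep falls fit no list. Adgrf5, an adhesion G protein-coupled receptor, was at 25.3, 23 and 24.6 CPM at 4 h and 12.5, 13.9 and 11.9 CPM at 8 h and changed by -0.93 ± 0.08 (SE, adjusted p = 3.46e-14). Aqp1, a water channel known from capillary endothelium and red cells, was at 30.4, 29.6 and 32.1 CPM at 4 h and 17, 16.5 and 20.9 CPM at 8 h and changed by -0.76 ± 0.07 (SE, adjusted p = 5.06e-11). Aqp1 fell less steeply late than early, since its early change was -1.28 and the late minus early change was 0.52 ± 0.12 (SE, adjusted p = 0.0172). Slc9a3r2, a PDZ scaffold protein, changed by -0.74 ± 0.11 (SE, adjusted p = 5.83e-06), and Ly6e, a GPI-anchored surface protein, by -0.73 ± 0.12 (SE, adjusted p = 1.46e-05).

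**Figure D2:**
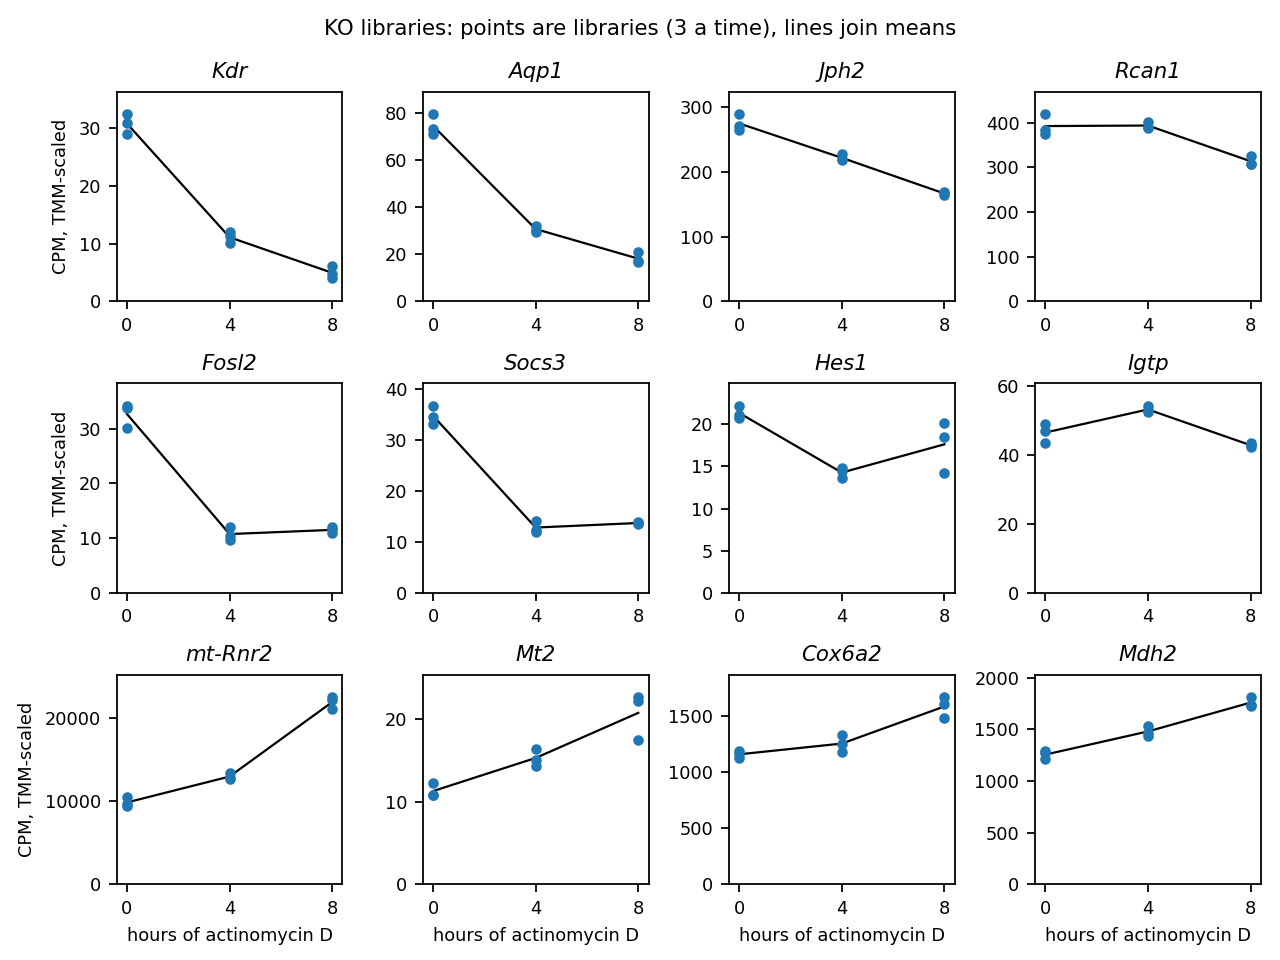
Levels of 12 genes in the 9 KO libraries, in CPM after TMM scaling (y axis, from 0) against hours of actinomycin D (x axis); points are libraries and lines join the means of 3. Kdr, Aqp1 and Jph2 fell in both intervals, Rcan1 from 4 h on, Fosl2 and Socs3 levelled off after 4 h; Hes1 fell and rose, Igtp rose and fell, and the bottom row shows genes that rose from 4 to 8 h.

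Markers of other cell types moved less uniformly. Late calls over all genes were 3.82% lower and 4.78% higher. Of 16 macrophage and leukocyte markers, 3 fell late (Csf1r, Cd14 and Cd74), none rose, and the median was -0.48. Their summed level was 39.5 to 46.4 CPM at 4 h and 28.4 to 33.2 CPM at 8 h. Cd74, the invariant chain of MHC class II, was at 11, 8.77 and 7.92 CPM at 4 h and 5.86, 5.53 and 7.51 CPM at 8 h, a change of -0.55 ± 0.13 (SE, adjusted p = 0.0046). The call was lost without KO replicate 1 at 4 h (adjusted p = 0.074).

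Beside 3.82% lower and 4.78% higher over all genes, 2 of 14 fibroblast markers fell (Fbln2 and Fn1) and 1 rose. Their median was -0.21. Their summed level overlapped between the times, at 57.9 to 64.5 CPM at 4 h and 55.5 to 61.3 CPM at 8 h. The riser was Pcolce, which enhances procollagen processing, at 28.1, 29.5 and 27.8 CPM at 4 h and 31.3, 32.5 and 34.6 CPM at 8 h, a change of 0.21 ± 0.07 (SE, adjusted p = 0.0414) that was not called without KO replicate 1, 2 or 3 at 4 h, or KO replicate 2 or 3 at 8 h (adjusted p = 0.0658 to 0.21). Of 9 pericyte and smooth muscle markers, Myh11 fell and Abcc9 rose. Abcc9, a regulatory subunit of ATP-sensitive potassium channels that cardiomyocytes also express, was at 415, 383 and 381 CPM at 4 h and 439, 474 and 431 CPM at 8 h and changed by 0.19 ± 0.05 (SE, adjusted p = 0.017), a call lost without KO replicate 2 or 3 at 4 h, or KO replicate 2 at 8 h (adjusted p = 0.0832 to 0.105). Of 3 erythroid markers 1, Hba-a1, fell, and of 6 atrial markers 1, Nppa, rose. None of the 1, 3 and 1 tested markers of Schwann, epicardial and fat cells was called. The part of these cell types in the falls of other genes was not tested.

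Interferon-induced genes were the next group. They encode antiviral proteins, GTPases of the cell's own defence and the factors that switch them on, and they are active in endothelial cells and leukocytes as well as in myocytes. Of 28 tested, 10 fell late and none rose, beside 3.82% lower and 4.78% higher over all genes, with a median of -0.42. These were Isg15, Gbp2, Ifit1, Rsad2, Irf1, Ifitm3, Irgm2, Stat2, Irgm1 and Igtp. Of them 7 had also fallen early, beside 2.42% of all tested genes that fell in both intervals. Rsad2, the antiviral protein viperin, was at 15.7, 21 and 18.6 CPM at 0 h and then at 16.8, 19.6 and 13.4 CPM at 4 h and 12.3, 7.96 and 9.14 CPM at 8 h. No change was called up to 4 h, with an early change of -0.15 ± 0.16 (SE, adjusted p = 0.564), and all libraries at 8 h were below those at 4 h, a late change of -0.76 ± 0.18 (SE, adjusted p = 0.0183). The late and early changes of Rsad2 were not told apart (adjusted p = 0.653 by edgeR), and the late call was lost without KO replicate 1 at 4 h, or KO replicate 2 or 3 at 8 h (adjusted p = 0.053 to 0.0863). The summed endothelial and macrophage markers fell in the same libraries, as given above, and their part in the interferon list was not tested.

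An AU-rich nonamer in the 3′ UTR, TTATTTATT, is a known decay signal, and it was searched on the sense strand of 1 annotated 3′ UTR per gene (GENCODE M21, GRCm38), together with its core pentamer ATTTA. The pentamer lies within the nonamer, so the 2 searches overlap. Of the genes chosen by the naming rule given with the processing, 5 hold the nonamer, beside 7.53% of all tested genes with an annotated 3′ UTR. The 5 are examples and do not show that the named genes hold it more often than others. Other genes mentioned in the text were not looked up singly. The 29 bases around the first copy in each are printed on the transcript strand, with the nonamer in capitals, because these genes show that the same letters stand in messages that levelled off (Fosl2), that went on falling (Dusp1, Rel, Per1) and that were not called (Mbnl2).
Fosl2, chr5:32156871-32156899, forward strand: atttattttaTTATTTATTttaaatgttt
Dusp1, chr17:26506159-26506187, reverse strand: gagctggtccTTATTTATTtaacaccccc
Rel, chr11:23737834-23737862, reverse strand: ctcccagactTTATTTATTttttttagct
Per1, chr11:69109686-69109714, forward strand: ggggctgcacTTATTTATTtgggagagac
Mbnl2, chr14:120431215-120431243, forward strand: attttgctttTTATTTATTtataatgtaa

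Over all tested genes with an annotated 3′ UTR, 7.53% (904 of 12004) held the nonamer. The share was 8.85% of genes called lower from 4 to 8 h, 4.83% of genes called higher, 9.46% of those that fell in both intervals and 16.1% (9 of 56) of those that levelled off. These sets also differed in UTR length, with medians of 1386, 611, 1394 and 1455 bases against 1068 over all. Pentamers per kilobase ran from 1.65 to 1.83 over these sets and all genes. The shares are descriptions, with no test, and a match is not a binding site.

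Immediate early genes are switched on within minutes of a stimulus such as cell isolation, and their messages decay fast. Of 35 tested, 25 had fallen from 0 to 4 h, beside 13.5% over all genes. From 4 to 8 h 9 fell, which were Klf4, Sgk1, Klf6, Dusp1, Jund, Fosb, Csrnp1, Per1 and Mafk, and Egr1 rose. Late calls over all genes were 3.82% lower and 4.78% higher. The late median of the 35 was -0.11, against -0.66 early. Sgk1, a kinase induced by serum and glucocorticoids, was at 20.4, 21.6 and 22.8 CPM at 0 h and at 8.29, 7.89 and 8.21 CPM at 4 h and 5.14, 5.22 and 4.33 CPM at 8 h. The libraries of the 3 times did not overlap, and the late change was -0.73 ± 0.12 (SE, adjusted p = 1.65e-05).

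Dusp1, a phosphatase that shuts off MAP kinases, was at 25.8, 25.4 and 26.6 CPM at 0 h and at 20.4, 18.5 and 18.9 CPM at 4 h and 14.7, 13.4 and 13.9 CPM at 8 h. Its early and late changes were nearly equal, at -0.43 and -0.46 ± 0.07 (SE, adjusted p = 1.72e-05). Per1, a repressor of the circadian clock, fell by a like amount in each interval, from 20.2, 17.6 and 21.1 CPM at 0 h to 16.2, 15.1 and 14.8 CPM at 4 h and 14, 10.1 and 11.5 CPM at 8 h, with a late change of -0.38 ± 0.09 (SE, adjusted p = 0.0048). That call was lost without KO replicate 2 at 8 h (adjusted p = 0.0753). Klf6, a zinc finger factor of the Krüppel-like family, was at 8.12, 7.25 and 8.04 CPM at 4 h and 5.62, 5.41 and 5.23 CPM at 8 h, a late change of -0.53 ± 0.11 (SE, adjusted p = 0.00133). Of the 12 Krüppel-like factors tested, 4 fell late (Klf4, Klf6, Klf3 and Klf9) and none rose, with a median of -0.25. The shares over all genes were 3.82% lower and 4.78% higher.

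Egr1, a zinc finger factor of the immediate early response, was the single member of that list that rose. It was at 101, 102 and 105 CPM at 0 h and at 111, 104 and 104 CPM at 4 h and 119, 129 and 129 CPM at 8 h. All libraries at 8 h were above all at 4 h, with a late change of 0.24 ± 0.05 (SE, adjusted p = 6.77e-04). Scaling by library size or by ribosomal proteins lost the call.

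Rel, a subunit of NF-kappaB, was at 25.5, 27.8 and 28 CPM at 0 h and at 13.2, 13.3 and 11.9 CPM at 4 h and 9.85, 9.95 and 10.5 CPM at 8 h. Its late change of -0.34 ± 0.09 (SE, adjusted p = 0.011) was smaller in size than the early one of -1.08, with a late minus early change of 0.74 ± 0.15 (SE, adjusted p = 0.00237). The late call of Rel was lost without KO replicate 1 or 2 at 4 h (adjusted p = 0.0559 to 0.0643). Of 16 NF-kappaB target genes 4 fell late (Cxcl2, Rel, Nfkb1 and Icam1), 1 rose and 1, Nfkbia, levelled off, with a median of -0.35. The shares over all genes were 3.82% lower, 4.78% higher and 0.491% levelling off. The riser was Sod2, the mitochondrial superoxide dismutase, at 804, 784 and 780.5 CPM at 4 h and 893, 908 and 909 CPM at 8 h, a change of 0.19 ± 0.04 (SE, adjusted p = 4.71e-04).

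Among the Dusp, Sprouty and Socs feedback genes, which damp growth factor and cytokine signals, 4 of 21 fell late (Spry1, Dusp1, Dusp8 and Socs5), and Socs3 levelled off. The shares over all genes were 3.82% lower and 0.491% levelling off. Arrdc3, an alpha-arrestin, was at 40.4, 42.1 and 39.5 CPM at 0 h and at 15.8, 17.1 and 14 CPM at 4 h and 13.2, 12.6 and 13 CPM at 8 h. It belonged to the 16 genes that fell in both intervals but less in the later one, at -0.27 ± 0.08 (SE, adjusted p = 0.0242) late against -1.38 early. The late call of Arrdc3 was lost without KO replicate 1 or 2 at 4 h, or KO replicate 2 or 3 at 8 h (adjusted p = 0.0602 to 0.198).

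Of 20 heat shock genes, 4 fell late (Hspa1b, Dnajb1, Dnajb4 and Dnaja1) and 1 rose, beside 3.82% lower and 4.78% higher over all genes. The median of the list was 0.034, so the group as a whole did not fall. Hspa1b has a near-identical copy in Hspa1a, so its reads may be split between them. Dnajb1, a cochaperone of HSP70, was at 8.41, 7.54 and 8.87 CPM at 4 h and 4.41, 5.47 and 6.31 CPM at 8 h, a change of -0.61 ± 0.12 (SE, adjusted p = 3.27e-04). The riser Cryab, the small heat shock protein of the Z disc, was at 1675, 1666 and 1693 CPM at 4 h and 1864, 2155 and 1940 CPM at 8 h, a change of 0.24 ± 0.05 (SE, adjusted p = 2.75e-04).

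Some genes of other groups also fell in both intervals. Jph2, which tethers the sarcoplasmic reticulum to the T-tubule (ENSMUSG00000017817, GRCm38 chromosome 2, 163336242 to 163397993, reverse strand), was at 269.5, 265 and 288 CPM at 0 h and at 226, 219 and 218 CPM at 4 h and 168, 164 and 166 CPM at 8 h. The 3 times did not overlap, and the late change of Jph2 was -0.41 ± 0.04 (SE, adjusted p = 7.04e-11). It was the single one of 21 calcium handling genes that fell, and 2 rose (Casq2 and Hrc, the latter call lost without KO replicate 1 at 4 h, or KO replicate 2 at 8 h (adjusted p = 0.0845 to 0.0954)). Kcnk3, a tandem pore domain potassium channel gene, was at 131, 136 and 129 CPM at 4 h and 109, 96.6 and 102 CPM at 8 h, a change of -0.36 ± 0.05 (SE, adjusted p = 4.72e-07). Of 24 ion channel genes 3 fell late (Kcna5, Kcnk3 and Kcnh2) and 2 rose (Kcnip2 and Abcc9), beside 3.82% lower and 4.78% higher over all genes. Vim, the intermediate filament of mesenchymal and endothelial cells, was at 9.32, 8.88 and 8.87 CPM at 4 h and 6.59, 5.41 and 6.07 CPM at 8 h, a change of -0.58 ± 0.11 (SE, adjusted p = 4.35e-04).

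Levelling off was the pattern of 65 genes, 0.491% of those tested. Their median log2 fold change was -1.02 from 0 to 4 h and -0.04 from 4 to 8 h. Their late changes ran from -0.64 (Arid5a) to 0.76, and the lack of a late call does not show that a member held its level. Of the 35 immediate early genes 12 were among them, which were Atf3, Btg2, Fosl2, Gadd45b, Gadd45g, Ier3, Ier5, Junb, Klf10, Myc, Rhob and Zfp36. Other members were the clock factors Bhlhe40, Nfil3 and Nr1d1, the AU-rich element binding proteins Zfp36 and Zfp36l1, and the transcription factor Foxo1. The count was 41 without KO replicate 2 at 4 h, 39 without replicate 3 at 4 h, and 39 with library size alone.

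Fosl2, an AP-1 subunit of the Fos family (ENSMUSG00000029135, GRCm38 chromosome 5, 32135801 to 32157842, forward strand), was at 30, 34.2 and 33.8 CPM at 0 h. It was at 9.71, 12.1 and 10.4 CPM at 4 h and 10.9, 11.7 and 12 CPM at 8 h. The libraries at 4 and 8 h overlapped, and both sets were far below 0 h. The early change was -1.60 ± 0.08 (SE, adjusted p = 1.42e-25), the late one 0.10 ± 0.09 (SE, adjusted p = 0.583), and the late minus early change 1.70 ± 0.15 (SE, adjusted p = 4.03e-13).

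Socs3, the feedback inhibitor of JAK-STAT signalling, was at 34.4, 33.1 and 36.7 CPM at 0 h and at 12.4, 12 and 14.1 CPM at 4 h and 13.8, 13.4 and 13.9 CPM at 8 h. Replicate 3 at 4 h lay above the highest at 8 h. Its early change was -1.44, its late change 0.10 ± 0.08 (SE, adjusted p = 0.536) and the late minus early change 1.54 ± 0.14 (SE, adjusted p = 4.03e-13). For neither Fosl2 nor Socs3 was a further fall called.

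Of the mitochondrial genes, 7 transfer RNA genes were also among the 65 (mt-Ta, mt-Tg, mt-Ti, mt-Tq, mt-Tr, mt-Tw and mt-Ty). They are cut out of long transcripts of both strands of the mitochondrial genome, and they neighbour or overlap other mitochondrial genes, so reads at their edges may belong to precursors or neighbours. mt-Tw was at 22.8, 25.4 and 20.5 CPM at 0 h and at 4.66, 4.44 and 5.00 CPM at 4 h and 4.47, 4.48 and 5.59 CPM at 8 h. mt-Ty was at 76.4, 76.7 and 65.6 CPM at 0 h and at 21.2, 24.6 and 21.6 CPM at 4 h and 21.8, 17.9 and 19 CPM at 8 h. mt-Ta was at 31.7, 34.4 and 30.9 CPM at 0 h and at 5.23, 6.78 and 7.32 CPM at 4 h and 7.67, 5.91 and 6.85 CPM at 8 h. For all 3 the libraries at 4 and 8 h overlapped, far below those at 0 h. The late minus early change was 2.33 ± 0.21 (SE, adjusted p = 1.09e-12) for mt-Tw, 1.50 ± 0.16 (SE, adjusted p = 3.90e-07) for mt-Ty and 2.41 ± 0.31 (SE, adjusted p = 4.16e-04) for mt-Ta. Their late changes, 0.05 ± 0.14 (SE, adjusted p = 0.892), -0.20 ± 0.09 (SE, adjusted p = 0.206) and 0.08 ± 0.19 (SE, adjusted p = 0.859), were not called.

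A change of direction was rare. Hes1, a repressor downstream of Notch, was at 21.1, 20.7 and 22.2 CPM at 0 h and at 13.6, 14.8 and 14.4 CPM at 4 h and 20.2, 14.2 and 18.5 CPM at 8 h. KO replicate 2 at 8 h lay within the range of 4 h, and the other 2 lay above it. The early change of Hes1 was -0.58 ± 0.09 (SE, adjusted p = 2.16e-07) and the late change 0.31 ± 0.09 (SE, adjusted p = 0.0188). Pnrc1, a coregulator of nuclear receptors that also binds the decapping machinery, was at 25.8, 31.3 and 25.7 CPM at 0 h and at 21.5, 22.9 and 22.9 CPM at 4 h and 27, 27.1 and 24.6 CPM at 8 h, and its late change was 0.23 ± 0.07 (SE, adjusted p = 0.0335). The late call of Hes1 was lost without KO replicate 1 or 3 at 4 h, or KO replicate 1 or 3 at 8 h (adjusted p = 0.0505 to 0.243), and that of Pnrc1 without KO replicate 1, 2 or 3 at 4 h, or KO replicate 1 or 2 at 8 h (adjusted p = 0.0631 to 0.145). With library size alone or ribosomal protein scaling 0 genes fell and then rose, as also without KO replicate 1 at 8 h.

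Igtp, an immunity-related GTPase induced by interferon-gamma, rose and then fell. It was at 49, 46.8 and 43.5 CPM at 0 h and at 52.9, 52.3 and 54.2 CPM at 4 h and 42.7, 43.3 and 42.3 CPM at 8 h. The libraries at 4 h lay above those of both other times. The early change was 0.19 ± 0.06 (SE, adjusted p = 0.0161), the late change -0.31 ± 0.06 (SE, adjusted p = 6.34e-04) and the late minus early change -0.51 ± 0.11 (SE, adjusted p = 0.00488). Ssna1, a microtubule-associated protein gene, was at 14.4, 14 and 13.6 CPM at 4 h and 12.4, 10.9 and 11.8 CPM at 8 h, a late change of -0.26 ± 0.09 (SE, adjusted p = 0.0491), but its late and early changes were not told apart (-0.50 ± 0.15 (SE, adjusted p = 0.128)), and the late call was lost without KO replicate 1 at 0 h, or KO replicate 1, 2 or 3 at 4 h, or KO replicate 2 or 3 at 8 h, or WT replicate 1 or 2 at 4 h, or WT replicate 3 at 8 h (adjusted p = 0.0509 to 0.205). The third gene of this pattern is named only by its identifier, ENSMUSG00000118642, which GENCODE M21 does not pair with a symbol here, with a late change of -0.47 ± 0.12 (SE, adjusted p = 0.00795).

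In all, 3 genes had no called change up to 4 h and fell from then on, with a called difference between the intervals. Rcan1, a feedback inhibitor of calcineurin (ENSMUSG00000022951, GRCm38 chromosome 16, 92391953 to 92470867, reverse strand), was at 419, 383 and 376 CPM at 0 h and at 391, 401 and 389 CPM at 4 h and 307, 326 and 309 CPM at 8 h. The libraries at 0 and 4 h overlapped and all at 8 h were lower. Its early change was 0.00 ± 0.05 (SE, adjusted p = 0.96), its late change -0.33 ± 0.05 (SE, adjusted p = 8.66e-07) and the late minus early change -0.33 ± 0.08 (SE, adjusted p = 0.0171).

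Hmox1, haem oxygenase 1, was at 32.2, 33.7 and 32.3 CPM at 0 h and at 31, 31 and 33.5 CPM at 4 h and 20.8, 25.1 and 20.3 CPM at 8 h. Its late change was -0.53 ± 0.07 (SE, adjusted p = 5.19e-07) after an early one of -0.04, and the late minus early change was -0.49 ± 0.12 (SE, adjusted p = 0.0313). Ahnak, a giant scaffold protein of the membrane, was at 231, 238 and 236 CPM at 0 h and at 246, 262 and 257 CPM at 4 h and 197, 227 and 206 CPM at 8 h. Its late change was -0.28 ± 0.05 (SE, adjusted p = 8.07e-05) and the late minus early change -0.40 ± 0.08 (SE, adjusted p = 0.00421). In these genes, too, no library at 8 h reached the range of 4 h. The pattern was met by 0 genes without any 1 of the 3 KO libraries at 4 h, by 0 genes with ribosomal protein scaling, and by 1 gene with DESeq2 or without KO replicate 1 at 8 h.

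Among the named genes the largest rises from 4 to 8 h were in the RNAs of the mitochondrial ribosome. mt-Rnr2, the 16S ribosomal RNA of the mitochondrion, was at 9419, 10470 and 9587 CPM at 0 h and at 12640, 12810 and 13360 CPM at 4 h and 22470, 22100 and 21040 CPM at 8 h. mt-Rnr1, the 12S ribosomal RNA, was at 4410, 4967 and 4550 CPM at 0 h and at 7597, 7790 and 8120 CPM at 4 h and 12740, 12200 and 12110 CPM at 8 h. Each time stood above the one before in every library. The late change was 0.76 ± 0.05 (SE, adjusted p = 3.03e-18) for mt-Rnr2 and 0.66 ± 0.05 (SE, adjusted p = 4.71e-16) for mt-Rnr1. Together they took 2.00 to 2.06% of counts at 4 h and 3.07 to 3.26% at 8 h. For mt-Rnr2 the late rise was larger than the early one (0.36 ± 0.08 (SE, adjusted p = 0.015)). The other 29 tested mitochondrially encoded genes were not called late, while 19 of the 31 had fallen early, beside 13.5% over all genes.

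Metallothioneins bind zinc and copper, and antioxidant enzymes clear peroxides. Of 26 genes of this group 13 rose late and 2 fell (Hmox1 and Srxn1), beside 4.78% higher and 3.82% lower over all genes. The median of the group was 0.16 and turned to -0.005 with ribosomal protein scaling. Mt2, a metallothionein, was at 10.9, 10.8 and 12.2 CPM at 0 h and at 15.1, 16.4 and 14.4 CPM at 4 h and 17.5, 22.7 and 22.2 CPM at 8 h, a late change of 0.44 ± 0.09 (SE, adjusted p = 0.00161). Gstm1, a glutathione transferase with close paralogues, was at 109.9, 110.3 and 97.9 CPM at 4 h and 129.5, 142 and 132 CPM at 8 h, a late change of 0.35 ± 0.06 (SE, adjusted p = 4.36e-05). Both rose with no overlap between 4 and 8 h, but the call of Gstm1 was lost with ribosomal protein scaling (adjusted p = 0.159 by edgeR).

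Genes of energy supply also rose. Of 82 nuclear genes of oxidative phosphorylation 36 rose and none fell, of 22 citric acid cycle genes 18 and none, of 28 glycolysis and glycogen genes 15 and none, and of 30 fatty acid oxidation genes 16 rose and 4 fell, beside 4.78% higher and 3.82% lower over all genes. Their median log2 fold changes were 0.16, 0.15, 0.13 and 0.14 with TMM and turned to -0.003, -0.014, -0.037 and -0.025 with ribosomal protein scaling, so these groups rose against the bulk of transcripts but not against ribosomal protein messages. Of the oxidative phosphorylation genes 31 had risen in both intervals, beside 3.21% over all genes.

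Cox6a2, the heart and muscle subunit of cytochrome c oxidase, was at 1184, 1251 and 1336 CPM at 4 h and 1486, 1607 and 1672 CPM at 8 h. Its late change was 0.34 ± 0.07 (SE, adjusted p = 0.00703), with no overlap. Mdh2, mitochondrial malate dehydrogenase, was at 1531, 1470 and 1440 CPM at 4 h and 1728, 1813 and 1738 CPM at 8 h, a change of 0.25 ± 0.04 (SE, adjusted p = 1.05e-05). Aldoa, an aldolase of glycolysis, was at 2666, 2569 and 2590 CPM at 4 h and 3087, 3093 and 3066 CPM at 8 h, a change of 0.24 ± 0.04 (SE, adjusted p = 1.93e-05). No library at 8 h fell into the range of 4 h for any of the 3.

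Fabp3, the fatty acid binding protein of heart, was at 3011, 3055 and 3073 CPM at 4 h and 3591, 3622 and 3722 CPM at 8 h, a change of 0.26 ± 0.04 (SE, adjusted p = 4.88e-05). The 4 fatty acid genes that fell were Angptl4, Mlycd, Ucp3 and Plin5, of which the first encodes an inhibitor of lipoprotein lipase and the others act at the mitochondrion or the lipid droplet. Mlycd, malonyl-CoA decarboxylase, was at 59.1, 55.7 and 58 CPM at 4 h and 45.9, 43.8 and 50.7 CPM at 8 h, a change of -0.30 ± 0.06 (SE, adjusted p = 9.11e-04).

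Contractile genes rose in part. Of 28 adult sarcomere genes 9 rose and none fell, beside 4.78% higher and 3.82% lower over all genes. The sarcomere median was 0.12 and turned to -0.05 with ribosomal protein scaling. Tpm1, alpha-tropomyosin, was at 9208, 9081 and 9302 CPM at 4 h and 10510, 10800 and 11670 CPM at 8 h, a change of 0.26 ± 0.05 (SE, adjusted p = 1.72e-04). Actc1, cardiac actin, was at 15170, 14250 and 14080 CPM at 4 h and 16390, 17670 and 16360 CPM at 8 h, a change of 0.21 ± 0.05 (SE, adjusted p = 0.00218). Of 21 fetal and stress genes 6 rose and 4 fell (Vim, Xirp1, Rcan1 and Actg1). Tnnt1, the slow skeletal troponin T, was at 58.7, 57 and 60.7 CPM at 4 h and 71.2, 69.8 and 67.6 CPM at 8 h, a change of 0.24 ± 0.06 (SE, adjusted p = 0.00519), and Nppa, the atrial natriuretic peptide precursor, at 112, 122 and 117 CPM at 4 h and 138, 125 and 141 CPM at 8 h, a change of 0.20 ± 0.05 (SE, adjusted p = 0.00492) that was lost without KO replicate 1 at 4 h, or KO replicate 3 at 8 h (adjusted p = 0.0577 to 0.0598).

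The rest of the strongest rises among the named genes were in genes of several roles, each with no overlap between 4 and 8 h. They were Stx8, a vesicle fusion protein (0.37 (adjusted p = 0.00735)), Slirp, which stabilises mitochondrial messages (0.37 (adjusted p = 0.0296)), Hmga1, a chromatin protein (0.35 (adjusted p = 0.00108)), Acyp1, an acylphosphatase (0.34 (adjusted p = 0.0244)), and Pdlim7, a PDZ and LIM domain protein (0.34 (adjusted p = 0.0119)), as log2 fold changes with edgeR. The call of Stx8 was lost without KO replicate 1 at 4 h, or KO replicate 3 at 8 h (adjusted p = 0.0723 to 0.0743), and that of Pdlim7 without KO replicate 1 at 4 h, or KO replicate 3 at 8 h (adjusted p = 0.0819 to 0.162). The call of Slirp was lost without KO replicate 1, 2 or 3 at 4 h, or KO replicate 1 or 3 at 8 h (adjusted p = 0.0727 to 0.132), and that of Acyp1 without KO replicate 1 or 3 at 4 h, or KO replicate 3 at 8 h (adjusted p = 0.0791 to 0.133).

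Some genes of protein synthesis rose, beside 4.78% higher over all genes. Of 84 cytosolic ribosomal protein genes 24 rose and none fell from 4 to 8 h, with a median of 0.16. The list is the reference of ribosomal protein scaling, under which its median is -0.006 by construction. These genes have many near-identical pseudogenes, and how reads with several positions were counted is not given, so single members are uncertain. Rpl27 was at 75.5, 76.8 and 75.8 CPM at 4 h and 86.6, 91.3 and 111 CPM at 8 h, a change of 0.34 ± 0.07 (SE, adjusted p = 0.00188). Of 77 mitochondrial ribosomal protein genes 12 rose and none fell, of 58 translation factor genes 10 and none, and of 46 proteasome genes 5 and none. The medians of the latter 3 were 0.095, 0.088 and 0.072 and turned to -0.072, -0.079 and -0.097 with ribosomal protein scaling. Mrpl42 (0.29 (adjusted p = 0.0273)), Eif3i (0.28 (adjusted p = 4.11e-04)) and Psmb6 (0.25 (adjusted p = 0.0372)) had the largest late log2 fold changes of these lists by edgeR. The call of Mrpl42 was lost without KO replicate 1 or 2 at 4 h, or KO replicate 2 or 3 at 8 h (adjusted p = 0.0794 to 0.0988), and that of Psmb6 without KO replicate 1, 2 or 3 at 4 h, or KO replicate 2 or 3 at 8 h, or WT replicate 2 at 8 h (adjusted p = 0.0517 to 0.139).

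**Figure D3:**
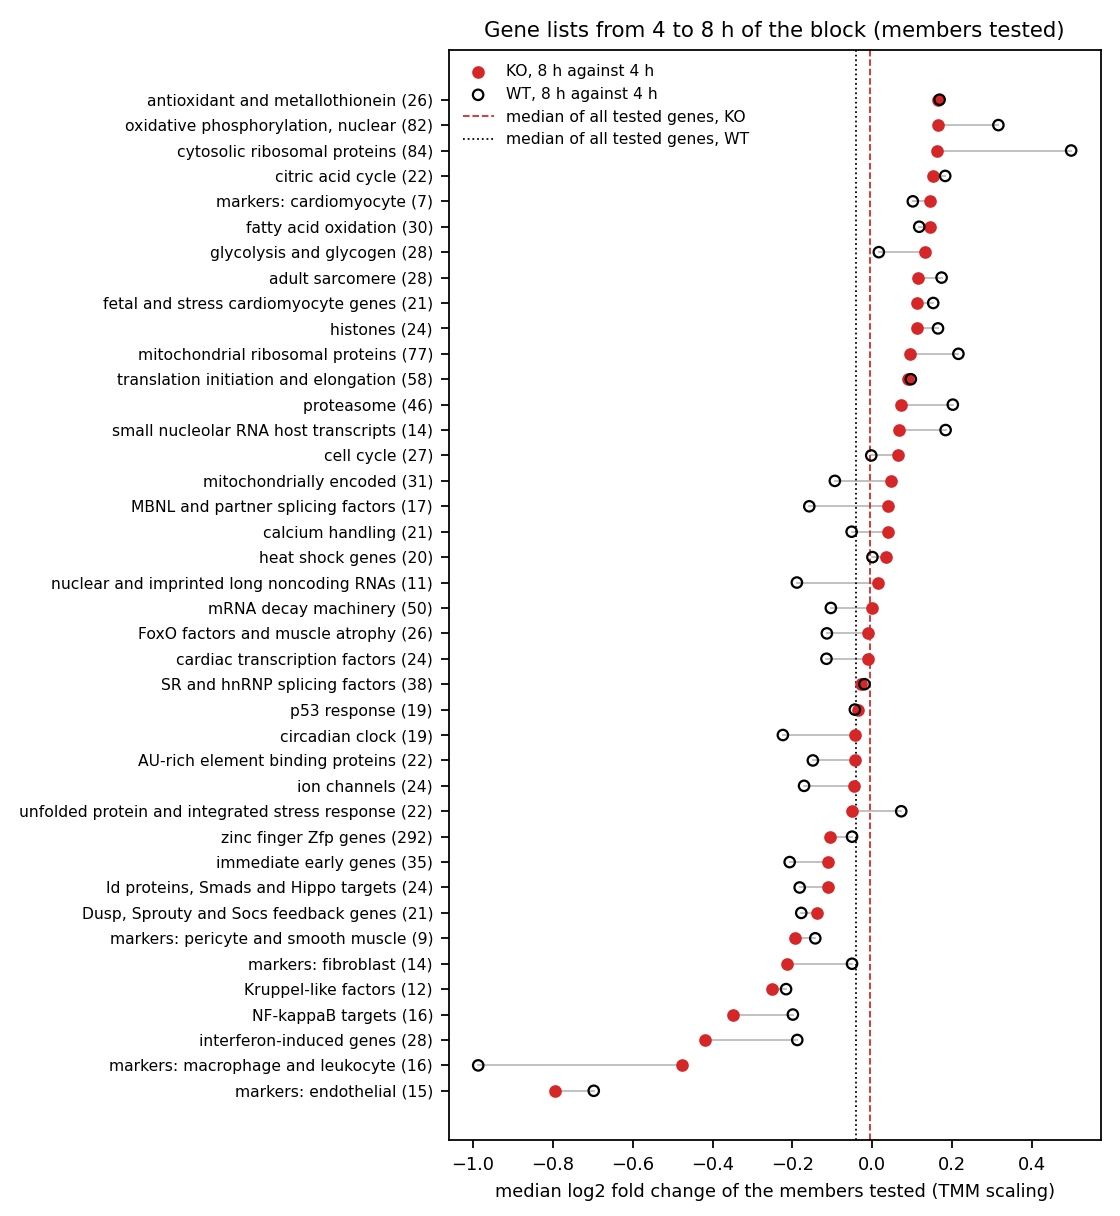
Median log2 fold change from 4 to 8 h (x axis, TMM scaling) over the tested members of each gene list with at least 7 of them (y axis, number tested in brackets), for KO (filled) and WT (open); the dashed and dotted lines are the medians of all tested genes. The endothelial list is lowest in KO at -0.80, and the largest gaps between genotypes are in the macrophage list (-0.48 in KO and -0.99 in WT) and the cytosolic ribosomal protein list (0.16 in KO and 0.50 in WT).

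Regulators of RNA itself were counted beside 8.6% called over all genes. Of 50 genes of mRNA decay 1 was called late, Dcp2, the decapping enzyme, at 13.3, 13.3 and 12.1 CPM at 4 h and 9.85, 11.1 and 10.7 CPM at 8 h, a change of -0.29 ± 0.10 (SE, adjusted p = 0.044). The call of Dcp2 was lost without KO replicate 1 or 2 at 4 h, or KO replicate 1, 2 or 3 at 8 h (adjusted p = 0.0506 to 0.185). Of 22 AU-rich element binding proteins and silencing partners 2 rose (Ybx1 and Ybx3) and 1 fell (Tnrc6c), and Zfp36 and Zfp36l1 levelled off. Ybx1, a cold shock domain protein that packages messages, was at 692, 676 and 703 CPM at 4 h and 808, 759 and 793 CPM at 8 h, a change of 0.19 ± 0.04 (SE, adjusted p = 0.00138). Of 38 SR and hnRNP splicing factors 3 fell (Clk1, Rbm39 and Son) and 1 rose (Hnrnpul1). Clk1, a kinase of SR proteins, was at 26.4, 28.6 and 31.1 CPM at 4 h and 23.6, 23.4 and 22.9 CPM at 8 h, a change of -0.30 ± 0.07 (SE, adjusted p = 0.00255).

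Among MBNL and its partner splicing factors 2 of 17 fell late, Ptbp1 (-0.43 (adjusted p = 0.0376)) and Ptbp3 (-0.41 (adjusted p = 0.0405)), by edgeR log2 fold change. The share called lower over all genes was 3.82%. Mbnl2, the paralogue of Mbnl1, was at 159, 157 and 150.0 CPM at 4 h and 173, 175 and 158 CPM at 8 h, with 2 of the 3 libraries at 8 h above all of those at 4 h, and its change of 0.12 ± 0.05 (SE, adjusted p = 0.133) was not called.

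None of 24 cardiac transcription factors, 14 small nucleolar RNA host transcripts or 11 nuclear and imprinted long noncoding RNAs was called, with medians of -0.01, 0.07 and 0.01. Of 27 cell cycle genes E2f3 fell, of 22 genes of the unfolded protein and integrated stress response Ppp1r15b fell, and of 24 genes of the Id, Smad and Hippo list Skil fell. The shares called over all genes were 3.82% lower and 4.78% higher. Of 19 p53 response genes Sesn1 fell and Perp and Ccng1 rose. Of 26 genes of the FoxO and atrophy list 3 rose and 4 fell, of 24 histone genes H3f3a rose and H3f3b fell, and of 292 Zfp zinc finger genes 13 fell and 2 rose. Of these named members the calls of E2f3, Skil, Sesn1, Perp and Zfp106 were each lost without at least 2 of the KO libraries at 4 or 8 h taken out singly. The adjusted p then reached 0.171 for E2f3, 0.142 for Skil, 0.108 for Sesn1, 0.17 for Perp and 0.284 for Zfp106.

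H3f3a and H3f3b encode the same histone H3.3 protein from different messages. H3f3a was at 125, 127 and 129.8 CPM at 4 h and 141, 142 and 138 CPM at 8 h, a change of 0.14 ± 0.05 (SE, adjusted p = 0.0373). H3f3b was at 37.1, 41.7 and 38.2 CPM at 4 h and 31.5, 32.2 and 32.9 CPM at 8 h, a change of -0.28 ± 0.06 (SE, adjusted p = 0.00204). The messages thus moved in opposite directions with TMM, although with ribosomal protein scaling H3f3a turned to -0.02 and was not called. The call of H3f3a was lost without KO replicate 1, 2 or 3 at 4 h, or KO replicate 1, 2 or 3 at 8 h (adjusted p = 0.0591 to 0.138).

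Whether the late phase differed between genotypes was tested as the KO change minus the WT change from 4 to 8 h. No library is shared between these 2 changes. The test called 367 genes (2.77%), 190 above 0 (1.44%) and 177 below 0 (1.34%), while 2441 genes (18.5%) were called within WT, 1177 higher (8.9%) and 1264 lower (9.55%). The split above and below 0 depended on scaling, with 34 above and 254 below 0 under library size alone, 140 and 260 under TMM without mitochondrial genes, and 3990 and 25 under ribosomal protein scaling. A fit of the 4 compared groups alone gave 124 and 335.

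Leaving out single libraries changed these counts as well. They were 50 above and 96 below 0 without WT replicate 1 at 4 h, 76 and 64 without WT replicate 1 at 8 h, and 83 above 0 without WT replicate 2 at 4 h. Without KO replicate 2 or 3 at 4 h they were 82 and 83, or 81 and 71. Without KO replicate 1 or 2 at 8 h they were 99 and 90, or 92 and 86. WT at 4 h had 2 libraries, so that leaving out 1 assumes that the other varies like the remaining groups.

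Cytosolic ribosomal protein genes carried the clearest group difference. In WT 78 of 84 rose from 4 to 8 h with a median of 0.50, beside 8.9% higher over all genes. In KO 24 rose with a median of 0.16, beside 4.78% over all genes. The difference was called below 0 for 30 and above 0 for none, beside 1.34% and 1.44% over all genes. The summed share of counts of the ribosomal protein genes in WT went from 0.915 to 0.953% at 4 h to 1.22 to 1.33% at 8 h. In KO it went from 1.13 to 1.18% to 1.17 to 1.30%. The KO share at 4 h was thus already above that of WT, and the genotypes overlapped at 8 h.

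Rpl26, a protein of the large ribosomal subunit, was at 100.0, 115 and 118 CPM at 4 h and 108, 108 and 119.7 CPM at 8 h in KO and 65.5 and 73.1 CPM at 4 h and 128, 119 and 116 CPM at 8 h in WT. In WT the libraries of the 2 times were far apart and in KO they overlapped, and the KO minus WT difference was -0.79 ± 0.09 (SE, adjusted p = 1.18e-07). Rpl36 (-0.73 ± 0.11 (SE, adjusted p = 8.76e-04)), Rpl31 (-0.71 ± 0.10 (SE, adjusted p = 1.82e-04)) and Rpl36a (-0.70 ± 0.17 (SE, adjusted p = 0.0379)) followed as differences on the log2 scale. Nrn1, a neuronal growth factor gene, differed by -0.69 ± 0.17 (SE, adjusted p = 0.0147), and it rose in WT by 0.64 and was at -0.04 in KO. Ring1, a Polycomb ubiquitin ligase, differed by -0.67 ± 0.18 (SE, adjusted p = 0.0282). With ribosomal protein scaling the differences of Nrn1 and Ring1 were not called (adjusted p = 0.1 and 0.155 by edgeR). In the fit of the compared groups only, that of Rpl36a was not called (adjusted p = 0.0618 by edgeR). The call of Rpl36a was lost without KO replicate 3 at 0 h, or KO replicate 2 at 4 h, or KO replicate 1, 2 or 3 at 8 h, or WT replicate 1 at 4 h, or WT replicate 1 or 3 at 8 h (adjusted p = 0.0514 to 0.0998), that of Nrn1 without KO replicate 2 at 4 h, or WT replicate 2 at 4 h (adjusted p = 0.0509 to 0.0815), and that of Ring1 without KO replicate 1 or 2 at 4 h, or KO replicate 1 or 3 at 8 h, or WT replicate 1 or 2 at 4 h, or WT replicate 2 at 8 h (adjusted p = 0.0575 to 0.0823).

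Above 0, Nme2 stood first among the named genes. It encodes a nucleoside diphosphate kinase, and it lies next to its near-identical paralogue Nme1, so reads may be split between them. Nme2 was at 14.8, 13.1 and 13.2 CPM at 4 h and 16.1, 16.5 and 19.6 CPM at 8 h in KO and 21.9 and 22.3 CPM at 4 h and 17.2, 15 and 16.5 CPM at 8 h in WT. It was higher at 8 h in KO and lower at 8 h in WT in every library, a difference of 0.79 ± 0.13 (SE, adjusted p = 7.55e-05). The rise within KO, 0.35 ± 0.09 (SE, adjusted p = 0.00621), was not called without KO replicate 3 at 8 h (adjusted p = 0.119).

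Lyz2, lysozyme of macrophages and neutrophils, was at 8.80, 9.41 and 9.11 CPM at 4 h and 9.24, 5.84 and 7.33 CPM at 8 h in KO and 11.4 and 9.43 CPM at 4 h and 5.09, 5.84 and 4.98 CPM at 8 h in WT, a difference of 0.69 ± 0.18 (SE, adjusted p = 0.0185), which was not called without KO replicate 1 at 8 h, or WT replicate 1 at 4 h, or WT replicate 1 at 8 h (adjusted p = 0.0618 to 0.194). The macrophage list as a whole had a late median of -0.99 in WT, where 11 of 16 fell, and -0.48 in KO, where 3 fell. The shares called lower over all genes were 9.55% in WT and 3.82% in KO. The difference was called for Lyz2 alone of the 16. The WT summed level fell from 50.1 to 53.6 CPM at 4 h to 24.2 to 30.4 CPM at 8 h, and in KO it fell from a lower start, as given above. F13a1 and Dab2 are not on this list and were named after their values were seen. They were among the 6 genes with a called difference of more than 2-fold above 0. They differed by 1.33 ± 0.28 (SE, adjusted p = 0.00477) and 1.57 ± 0.43 (SE, adjusted p = 0.029), which says nothing about the macrophage list.

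Pomt1, a protein O-mannosyltransferase (0.66 ± 0.13 (SE, adjusted p = 0.00191)), Serinc5, a membrane protein (0.64 ± 0.11 (SE, adjusted p = 3.29e-04)), Zdhhc4, a palmitoyltransferase (0.62 ± 0.15 (SE, adjusted p = 0.00877)), and Snupn, the import adaptor of small nuclear ribonucleoproteins (0.53 ± 0.15 (SE, adjusted p = 0.0407)), completed the highest differences. Pomt1 and Zdhhc4 rose in KO and fell in WT, each by its own call, but the KO call was lost without KO replicate 2 at 4 h, or KO replicate 2 or 3 at 8 h (adjusted p = 0.0629 to 0.0737) for Pomt1, and without KO replicate 1, 2 or 3 at 4 h, or KO replicate 1, 2 or 3 at 8 h (adjusted p = 0.0577 to 0.186) for Zdhhc4. The difference of Zdhhc4 was not called without WT replicate 2 at 4 h (adjusted p = 0.07), and that of Snupn without KO replicate 1 at 0 h, or KO replicate 2 or 3 at 4 h, or KO replicate 2 or 3 at 8 h, or WT replicate 1 or 2 at 4 h, or WT replicate 1 or 3 at 8 h (adjusted p = 0.0532 to 0.145). The difference of Snupn was also not called under TMM without mitochondrial genes or under library size alone (adjusted p = 0.0532 and 0.106 by edgeR). Of the MBNL partner list 4 of 17 differed above 0 and none below, beside 1.44% above and 1.34% below over all genes. They were Celf2, Rbfox1, Rbfox2 and Mbnl2. Mbnl2 was at 163 and 153 CPM at 4 h and 129.7, 146 and 148 CPM at 8 h in WT, and the difference was 0.28 ± 0.07 (SE, adjusted p = 0.0209). Celf2 (0.35 ± 0.10 (SE, adjusted p = 0.0442)), Rbfox1 (0.41 ± 0.10 (SE, adjusted p = 0.0172)) and Rbfox2 (0.32 ± 0.08 (SE, adjusted p = 0.0119)) fell in WT and were not called in KO. The differences of these 4 genes were not rechecked singly with libraries left out or with other scalings.

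**Figure D4:**
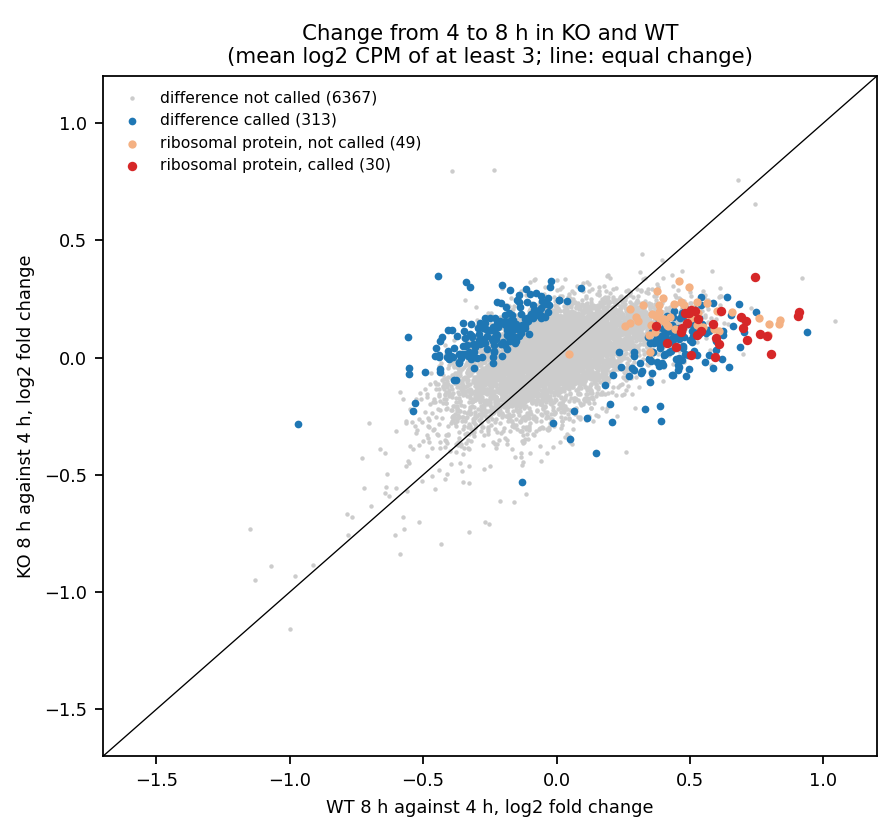
Log2 fold change from 4 to 8 h in WT (x axis) and KO (y axis) for the 6759 tested genes with a mean log2 CPM of at least 3 over the KO libraries, TMM scaling; the line marks equal change, 5 genes lie outside the axes, and 343 genes have a called difference. Of the 79 cytosolic ribosomal protein genes shown, 30 have a called difference and lie below the line.

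Endothelial markers gave no called difference between the genotypes in the late phase. Of the 15, 12 fell in each, beside 3.82% over all genes in KO and 9.55% in WT. The medians of the markers were -0.80 in KO and -0.70 in WT. The difference of Kdr was -0.16 ± 0.16 (SE, adjusted p = 0.693), with its interval of about 2 SE on either side including 0. Of the genes that fell from 4 h on in KO, Hmox1 and Ahnak fell more in KO than in WT, by -0.40 ± 0.10 (SE, adjusted p = 0.0221) and -0.27 ± 0.07 (SE, adjusted p = 0.029), whereas Rcan1 fell in both and the difference was -0.07 ± 0.07 (SE, adjusted p = 0.695). Hmox1 was at 44.2 and 43.3 CPM at 4 h and 38.2, 38.7 and 43 CPM at 8 h in WT, where the late change was -0.13 ± 0.07 (SE, adjusted p = 0.237). Egr1 rose in KO and was at 163 and 156 CPM at 4 h and 144, 149 and 141 CPM at 8 h in WT, a difference of 0.38 ± 0.07 (SE, adjusted p = 0.00109). The differences of Hmox1, Ahnak and Egr1 were not rechecked singly with libraries left out or with other scalings.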

How the data were processed

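RNA was sequenced from total RNA of plated ventricular myocytes on the DNBseq platform, per the labels' protocols. Raw counts (unit: count) deposited by the authors covered 55487 genes. Ratios deposited by the authors covered 20173 genes, and 1 further row that names no gene was left out. As tools, featureCounts, limma, STAR and DESeq2 are named in the submitters' processing notes, with the builds mm10 and GRCm38. Their versions and roles, the strand setting and the treatment of multi-mapped reads were not given in the sources used here. The deposited log2 ratios of 6787 genes, less those from the counts, had a standard deviation of 0.0379 to 0.055 per KO library. Their median was -0.0866 to -0.108 at 4 h and -0.1847 to -0.2023 at 8 h. Late changes thus lie lower in the ratios than in the counts, so fewer and smaller rises are to be seen there. The ratios served as an alternative only. Every sample column was used.

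Groups came from the labels. Counts were fitted with edgeR 4.0.16 in R 4.3.3 (quasi-likelihood, robust, TMM factors, filterByExpr) in 1 model of the 6 groups over 17 libraries. The filter kept 13230 genes with 99.93% of counts, and the biological coefficient of variation was 5.285%. Adjustment was by Benjamini-Hochberg over all tested genes, with calls at 0.05, and SEs were taken as |log2 fold change| over the root of the F statistic. Patterns are counts of calls from these contrasts, as defined beside them. The members and lists were chosen with earlier results of these data known.

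Named genes had an adjusted p under 0.05, a mean log2 CPM of at least 3 over the KO libraries and no predicted or clone name. They are the 12 highest and 12 lowest late changes without overlap, up to 5 per pattern, the 6 highest and 6 lowest KO minus WT differences, the extreme called members of each list, and Mbnl1, Mbnl2 and Esr1. A gene named by several parts of the rule counts under each. Names and 3′ UTRs came from GENCODE M21 on GRCm38, which named 99.53% of the gene identifiers.

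No KO library at 4 or 8 h was a copy of another of the same time, since these replicates differed by more than counting noise. Other pairs of libraries were not checked. Whether same-numbered libraries at 4 and 8 h pair was not settled. Their deviations correlated at 0.0381 to 0.14, beside -0.169 to 0.127 for libraries of different numbers. With 3 libraries a group such values cannot decide it. The fit was tested on simulated counts of 12754 genes. These were drawn with the fit's own estimate of spread and equal means in all groups, except for changed genes in KO at 8 h. The changes were balanced, at log2 fold changes of 0.585, -0.585, 1 and -1. No early fall and no shift of the bulk of transcripts was simulated, so the choice of scaling was not tested. For the late contrast the fit recovered 50 of 50 genes changed at each of the 4 fold sizes, with 7 false calls among 207. At the smaller fold size it recovered 35 rises and 33 falls of 50 each for the late minus early change, with 11 false calls among 179, and 40 and 33 of 50 for KO minus WT, with 6 among 179. At the larger it recovered all 50 in both. Smaller changes and changes in less abundant genes were not simulated. Of the 633 genes called higher late, only 9 rose by more than the smaller fold size, and their median was 0.19. The recovery of such small rises is thus not known. Alternatives were RLE factors, library size, ribosomal protein scaling, TMM without mitochondrial genes, other filters, DESeq2 1.42.0, the compared groups only, a replicate block, the ratios as log2(ratio + 0.01) with limma 3.58.1, and each library left out in turn. limma on log2 CPM of the counts was added after seeing the data. Some genes of the lists are not reported here.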

Additional observations from a re-analysis of the deposited data

Results flagged for a closer look

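The change from 4 to 8 h differed between KO and WT, by edgeR's test of the difference itself, in 22 of the named genes. In each case the value is the KO change minus the WT change on the log2 scale. Ribosomal protein genes stood below 0, with -0.79 for Rpl26, -0.73 for Rpl36, -0.71 for Rpl31, -0.70 for Rpl36a and -0.40 for Rpl27. Nrn1 (-0.69), Ring1 (-0.67), Hmox1 (-0.40), Tpm1 (-0.28) and Ahnak (-0.27) were also below 0. Nme2 (0.79), Lyz2 (0.69), Pomt1 (0.66), Serinc5 (0.64), Zdhhc4 (0.62) and Snupn (0.53) were the highest above 0. Smaller differences above 0 were found for Egr1 (0.38), Abcc9 (0.37), Mbnl2 (0.28), Actc1 (0.27), Cryab (0.24) and Aldoa (0.20). Ribosomal protein scaling moved the median difference of all genes by 0.30, so the sign of differences of that size depends on the scaling. These genes were named in part for this difference, and WT at 4 h had 2 libraries.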

How the results depend on the processing

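With library size alone 41 genes were higher and 927 lower from 4 to 8 h, 55 had a late change above the early one, 34 a KO change above the WT change, 39 levelled off and 0 fell and then rose. With ribosomal protein scaling 4 were higher and 2162 lower, 1 had a late change below the early one, 3990 and 25 had a KO change above and below that of WT, 1518 fell in both intervals, 0 fell and then rose and 0 fell from 4 h on only. DESeq2 called 284 lower, 199 that fell in both and 1 that fell from 4 h on. Fitting the compared groups only gave 124 and 335 genotype differences above and below 0. Without a filter 11 late changes lay below the early ones and 277 KO changes below those of WT. An adjusted p of 0.01 left 263 higher and 220 lower. limma called 0 higher and 1 lower on the deposited ratios (385 and 2104 at an unadjusted p under 0.05) but 656 and 417 on log2 CPM of the counts, and the cause was not tested.

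Leaving out 1 library at a time gave 310 to 689 higher and 292 to 517 lower genes from 4 to 8 h, 45 to 89 late changes above and 2 to 9 below the early ones, and 50 to 234 KO changes above and 64 to 254 below those of WT. It gave 179 to 330 genes that fell in both intervals, 39 to 75 that levelled off, 0 to 2 that fell and then rose, 2 to 5 that rose and then fell and 0 to 3 that fell from 4 h on only. Fewer libraries enter each of these fits.

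Some late log2 fold changes turned in sign; of these genes Perp, H3f3a and Zfp106 had been called. With ribosomal protein scaling mt-Ta was at -0.083, mt-Tw -0.125, Fosl2 -0.069, Socs3 -0.070, Rpl26 -0.154, Rpl36a -0.076, Serinc5 -0.082, Snupn -0.051, Perp -0.028, H3f3a -0.023, Zfp106 -0.041, Mbnl1 -0.140 and Mbnl2 -0.050. With library size alone mt-Tw was at -0.038, Rpl26 -0.068 and Mbnl1 -0.056. In the deposited ratios Rpl36a was at -0.038, Mbnl1 -0.087 and Mbnl2 -0.012. Esr1 was at 0.013 with DESeq2 and RLE factors and 0.015 without a filter. Over single libraries left out, mt-Ta ran from -0.048 to 0.185, mt-Tw from -0.071 to 0.101, Rpl26 from -0.057 to 0.062, Rpl36a from -0.005 to 0.195, Nrn1 from -0.150 to 0.070 and Esr1 from -0.023 to 0.013.

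With the replicate number as a block 635 genes were higher and 485 lower from 4 to 8 h, and 313 fell in both intervals. The numbers are not known to pair libraries: the correlations of deviations of same-numbered libraries at 4 and 8 h were 0.14, 0.0381 and 0.0455, and replicate 2 at 4 h correlated best with replicate 3 at 8 h (0.127).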

Other observations

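Some of the largest KO minus WT differences of the late phase lay in sparsely counted genes. The following were named after their values were seen. Tspan6, a tetraspanin, differed by -2.44 (adjusted p = 0.0253 by edgeR) and Snhg8, a small nucleolar RNA host, by -1.11 (adjusted p = 0.0442). Atcay, a caytaxin gene, differed by 1.48 (adjusted p = 0.0342). Nadk2, the mitochondrial NAD kinase, was a further gene whose late change lay below its early one, by -0.36 (adjusted p = 0.0382), although its late change in KO was not called.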
